A study of Mus musculus with 5 samples.

Results

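Limb osteoblast lineage cells were the forelimb and hindlimb cells that carried mRNA of Runx2, the master transcription factor of bone formation, together with mRNA of at least 2 of 7 further osteoblast genes. Those 7 genes were Sp7, Alpl, Ibsp, Spp1, Ifitm5, Bglap and Dmp1. Cells with Col2a1, the main collagen of cartilage, at 1000 CPM or more (CPM, counts scaled to a total of 1000000 UMIs, here of the cell) were left out, as was any cell with a molecule of Ihh or Col10a1, which mark cartilage on its way to hypertrophy. The selection took 91 of 49801 limb cells kept after filtering, which is 0.183%, and the series held 69434 kept cells in all.

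The study sequenced the single-cell RNA of 3 mouse penis libraries at postnatal day 6, made while the bone of the penis, the baculum, forms, and of 1 forelimb and 1 hindlimb library labelled as embryonic day 15. All samples were labelled C57BL/6N, where the study's text names C57BL/6J, with no treatment or engineered allele. Forelimbs and hindlimbs were dissected from 6 male embryos. The sources used here do not say how many entered each limb library or whether both libraries hold the same embryos, and tissue, age and preparation cannot be told apart between limb and penis. Each molecule was counted through its unique molecular identifier (UMI). With 1 library per limb, differences between the limbs carry counting intervals and no test, and cells of one library are not replicates.

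Osteoblasts arise from mesenchymal cells that first switch on Runx2 and then Sp7, lay down a matrix of type I collagen, and mineralize it with the help of alkaline phosphatase. In the long bones of the limb this happens around a cartilage template whose prehypertrophic cells secrete Indian hedgehog, a signal that the neighbouring osteoblast precursors receive. Ibsp and Spp1 encode secreted phosphoproteins of the mineralized matrix, Ifitm5 a membrane protein of matrix-forming osteoblasts, Bglap osteocalcin, and Dmp1 a matrix protein of osteocytes.

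The forelimb library held 48 selected cells, 0.186% of its kept cells with an exact 95% binomial interval of 0.137% to 0.246%. The hindlimb library held 43, or 0.180% with an interval of 0.130% to 0.242%. These intervals overlapped almost entirely, and here and below they cover counting error only. The libraries held 156060382 UMIs in 28266 barcodes (forelimb) and 162335993 UMIs in 25937 barcodes (hindlimb), and they shared 203 barcodes, none of which was a selected cell. Selected cells were deeper than the rest: their median was 7452 UMIs in the forelimb and 9285 in the hindlimb, against 4738 and 5454.5 over all kept cells.

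Short stretches upstream of 3 genes are shown because Spp1 was one of the genes that chose the cells, Sgms2 was higher in cells with later markers in the test described below, and Mmp13 marked a few forelimb cells. The capitals mark the 6 letters ACCACA or their reverse complement TGTGGT, the core of the sequence that Runx family proteins are known to bind. The sequences are from RefSeq, build GRCm38.p6, read in the direction of the gene: chr5:104434943-104435028 on the plus strand for Spp1, chr3:131491518-131491603 on the minus strand for Sgms2, and chr9:7272356-7272441 on the plus strand for Mmp13.
Spp1: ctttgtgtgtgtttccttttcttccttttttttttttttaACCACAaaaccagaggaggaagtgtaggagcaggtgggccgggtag
Sgms2: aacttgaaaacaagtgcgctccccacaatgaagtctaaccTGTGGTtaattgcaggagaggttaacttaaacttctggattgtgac
Mmp13: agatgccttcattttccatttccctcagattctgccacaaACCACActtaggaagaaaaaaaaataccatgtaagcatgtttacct
Of 20 genes looked up, 13 had an entry in the table used, with 21 promoters in all, since some genes have several starts. Within 250 bases upstream of the start, 5 of these 21 promoters (23.8%) held the motif on either strand, each of a different gene. Spp1 held it at 1 of 2 starts and Sgms2 at 1 of 6. In the same window 4614 of all 32851 promoters held it, or 14.0%. A match of 6 letters describes the sequence and does not show that a protein binds there.

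The 7 genes of the selection were unevenly present in the selected cells. Alpl, the alkaline phosphatase of mineralizing bone, was detected in 37 forelimb and 36 hindlimb cells. Sp7, the transcription factor that acts after Runx2, was detected in 27 forelimb cells (56.2%) and 23 hindlimb cells (53.5%). Ifitm5 was detected in 22 and 17 cells, Spp1 in 18 and 17, and Ibsp in 13 and 8. Bglap was seen in 2 forelimb cells and in none of the hindlimb, and Dmp1 in 1 and 2. Bglap and Dmp1, the selection genes of mature osteoblasts and osteocytes, were thus close to undetected. The median Runx2 count was 5.5 UMIs in the forelimb and 4 in the hindlimb, and 11 and 8 cells rested on 1 Runx2 UMI. Because these genes made the selection, their presence is a description and no test was read from it.

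**Figure D1:**
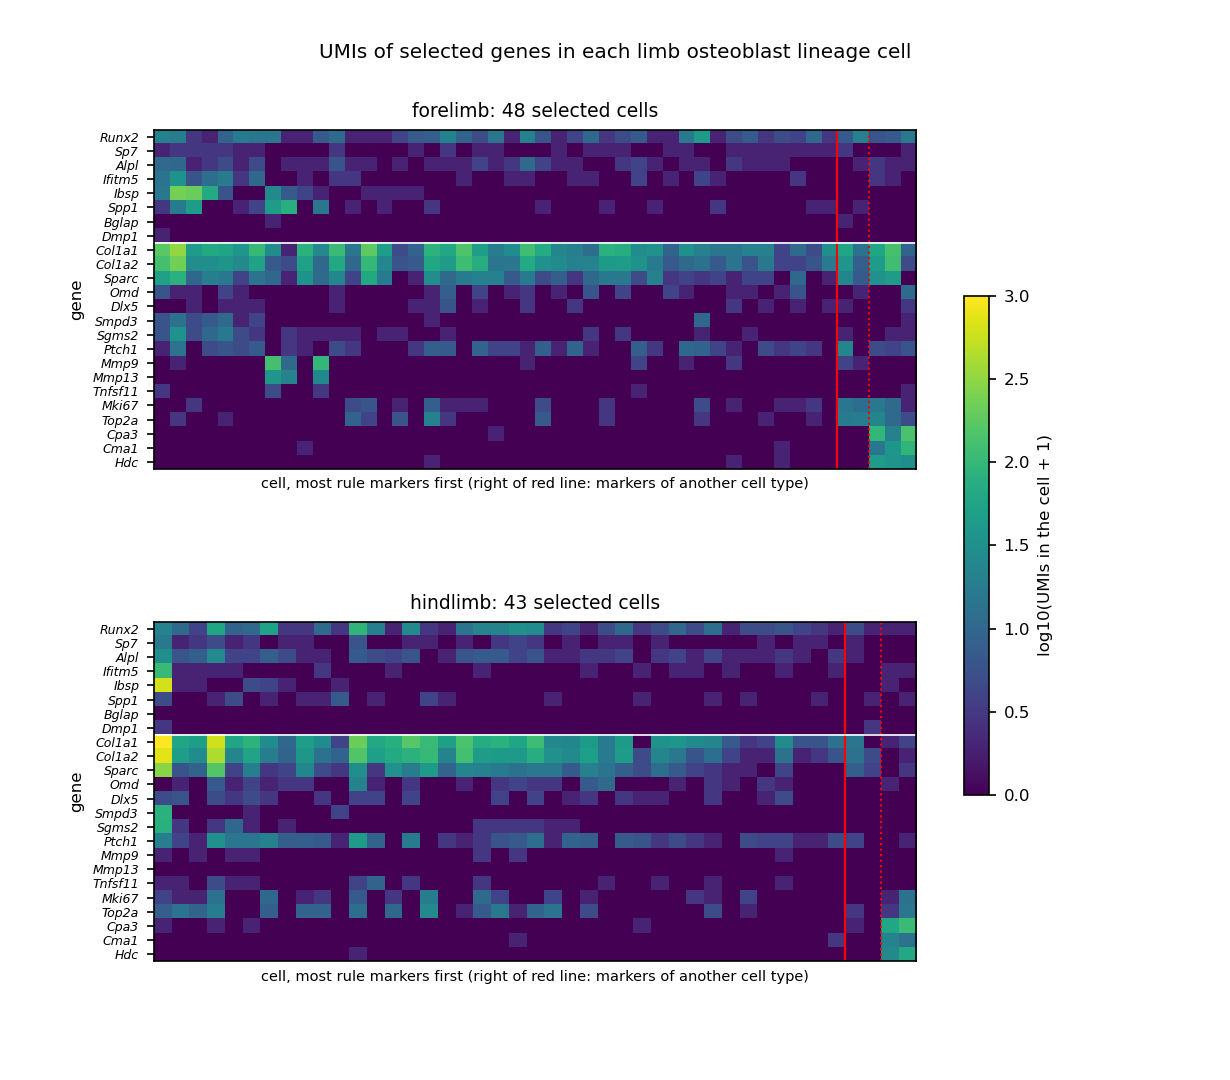
UMIs of 24 genes (vertical axis) in each selected cell (horizontal axis), as colour on a log10(UMIs + 1) scale, with the 48 forelimb cells above and the 43 hindlimb cells below. The selection genes lie above the white line. Cells right of the red line hold at least 3 markers of endothelial, immune, muscle or osteoclast cells (right of the dotted line, also of mast cells). In the hindlimb 1 cell holds 642 of 654 Ibsp UMIs.

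Exactly 2 of the 7 genes were found in 68 of the 91 cells, and 4 or more in 12. The commonest pairs were Sp7 with Alpl, in 11 forelimb and 13 hindlimb cells, and Alpl with Ifitm5, in 8 and 8. Just outside the selection lay 280 forelimb and 324 hindlimb cells with Runx2 and exactly 1 of the 7 genes, and 38 and 40 cells with 2 genes but no Runx2 UMI. The highest Col2a1 level of a selected cell was 697 CPM for the forelimb and 969 CPM for the hindlimb, and the lowest level among cells that missed the selection by Col2a1 alone was 1561 and 1059.

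The selection genes were also found in cells of other types. Among cells with at least 3 endothelial markers, 7.79% of forelimb and 7.75% of hindlimb cells held a Runx2 UMI, 2.87% and 1.94% an Alpl UMI, and 1.43% and 1.21% an Ifitm5 UMI, at median depths of 6860.5 and 8904 UMIs. The shares were higher among cells with at least 3 immune markers, at 17.1% and 23.5% for Runx2 and 4.00% and 3.59% for Ifitm5, and among those with at least 3 mast cell genes, at 28.3% and 37.4% for Runx2 and 7.79% and 6.21% for Ifitm5. A single Ifitm5 or Alpl UMI in a cell was therefore within what other cell types showed. Only 15 of the 39 cells with Ifitm5 held 2 or more of its UMIs, 13 in the forelimb and 2 in the hindlimb.

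A check of the cells against markers of some other cell types set 9 of them apart. These cells, 5 in the forelimb and 4 in the hindlimb, each held at least 3 markers of endothelial, immune, muscle or osteoclast cells. Of these, 3 forelimb and 2 hindlimb cells held at least 3 of 10 mast cell genes, among them Cpa3, the carboxypeptidase of mast cell granules, at 96, 20 and 136 UMIs in the forelimb and 110 and 61 in the hindlimb. A doublet caller marked 5 of these barcodes as mixtures, 4 from the forelimb and 1 from the hindlimb. The label of osteoblast lineage therefore went against the markers in these cells, so results are given for all 91 cells and, where a value changes, for the 82 that remained. The mast cell list was drawn up after these cells had been seen. The check did not cover genes of cartilage, tendon or red blood cells. At least 3 of 10 chondrocyte genes were found in 25 forelimb (52.1%) and 36 hindlimb (83.7%) selected cells. Among all kept cells, 4953 of 25865 in the forelimb and 6259 of 23936 in the hindlimb held as many. At least 3 of 6 tendon genes were found in 4 forelimb and 2 hindlimb selected cells. At least 3 of 6 red blood cell genes were found in 39 and 38 selected cells, and in 20413 and 17920 of all kept cells. Cells with cartilage or red blood cell genes therefore stayed among the 82, and no cell was left out for tendon genes.

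Compared with all other limb cells, the selected cells had higher levels of 35 genes, Omd, Dlx5 and Ptch1 among them, and lower levels of 38, with genes of red blood cells and muscle among them. A gene was called at a Benjamini-Hochberg adjusted p under 0.01 and an absolute log2 fold change above 1, from edgeR's quasi-likelihood test on UMI counts summed per library and group, with the library as a block. On these terms 35 genes were higher (0.169%) and 38 lower (0.183%) among 20716 tested, or 0.352% in all. With no library block 9 genes were called, and of those named below Dlx5, Panx3, Ptch1, Myog, Actc1, Mylpf, Pf4, C1qb, Matn1 and Sfrp2 were not. Without the 9 cells, 203 were higher (0.981%) and 418 lower (2.02%) among 20703, or 3.0% in all. In that second test edgeR took each gene's spread wholly from values shared across genes, with 1 residual degree of freedom. Its p-values are therefore not given below, and genes called only in it rest on that shared spread. Counts without the 9 cells include genes that marked those cells, which are lower by construction. Levels are in CPM of the summed UMIs of a group.

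Omd, osteomodulin, a small leucine-rich proteoglycan of bone matrix, had the highest fold change of the called genes that reached a mean of 20 CPM when all 91 cells were used. Without the 9 cells its log2 fold change was 4.56, and Mmp9, Ostn, Slc13a5, Tnfsf11 and Dlx6 lay above it at 6.75, 5.62, 5.29, 5.18 and 4.95. Mmp9 was uneven there, at 660 CPM in forelimb selected cells and 19.6 CPM, from 9 UMIs, in the hindlimb. Most of its UMIs lay in 3 forelimb cells described below. With all cells Omd stood at 109 CPM in forelimb and 143 CPM in hindlimb selected cells, against 6.00 and 4.76 CPM in the other cells, a log2 fold change of 4.36 ± 0.26 (SE, 2 libraries; edgeR adjusted p = 0.00033). Both libraries showed the difference, and Omd lies on chromosome 13 from 49582462 to 49592822 on the plus strand. Dlx5, a homeobox factor that acts in osteoblast differentiation, stood at 46.9 and 101 CPM against 3.77 and 4.31 CPM, with a log2 fold change of 3.95 ± 0.33 (edgeR adjusted p = 0.0024). Its neighbour Dlx6, on the same stretch of chromosome 6, stood at 16.9 and 32.9 CPM against 0.859 and 0.882 CPM, with an edgeR adjusted p of 0.015 that missed the threshold. Both Omd and Dlx5 were spread over cells: Omd was detected in 22 forelimb and 23 hindlimb cells, and Dlx5 in 17 and 20.

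Smpd3, the neutral sphingomyelinase needed for bone mineralization, stood at 97.5 and 164 CPM against 7.21 and 7.11 CPM, with a log2 fold change of 3.98 ± 0.26 (edgeR adjusted p = 0.00052). This fold rested on few cells in the hindlimb, where 1 cell held 95.3% of the Smpd3 UMIs. Panx3, a channel protein of osteoblasts and prehypertrophic chondrocytes, was also higher, with a log2 fold change of 3.49 ± 0.40 (edgeR adjusted p = 0.0075), and 1 cell held 70.0% of its 20 hindlimb UMIs. Neither was called without the cell richest in Ibsp of each library, where Smpd3 stood at 2.25 ± 0.52 (edgeR adjusted p = 0.024) and Panx3 at 2.16 ± 0.61 (edgeR adjusted p = 0.086).

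Among the 14 bone transcription factors of the list, 2 were higher, Dlx5 among them, and none was lower. The median log2 fold change was 1.81, beside -0.21 over all genes tested. With the 9 cells left out, 8 of the 14 were higher, adding Lef1, Msx1, Dlx6, Tcf7, Msx2 and Mef2c, and the median was 1.95 beside -0.28. These added calls come from the second test above, whose p-values are not given. Over all selected cells, most hindlimb Tcf7 and most forelimb Lef1 UMIs lay in a single cell each, as given below. Twist1, a factor that restrains Runx2 activity in early precursors, was near the level of other limb cells at 351 and 313 CPM against 280 and 283 CPM.

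Among the 14 tested bone matrix genes Omd alone was higher, and without the 9 cells Omd, Col1a1, Col24a1 and Tmem119 were higher and Dcn, the proteoglycan decorin, was lower. Col1a1, the main chain of type I collagen, was detected in 89 of the 91 cells and stood at 4838 and 6972 CPM against 2729 and 2302 CPM, a log2 fold change of 1.02 ± 0.17 whose edgeR adjusted p of 0.029 missed the threshold with all cells. None of 15 genes for collagen modification and none of 14 cell division genes was called in either direction, with median log2 fold changes of 0.18 and 0.06. Osteocyte genes were not called either: 3 of 6 could be tested, and their median was -0.81.

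Ptch1 led the hedgehog response genes. Ptch1, the hedgehog receptor whose own transcription rises when the pathway is active, was detected in 35 forelimb and 37 hindlimb cells. It stood at 308 and 532 CPM against 50.2 and 71.2 CPM, a log2 fold change of 2.57 ± 0.15 (edgeR adjusted p = 0.00029). It was the 1 called gene of 7 in the list, whose median was 1.13, and without the 9 cells Gli1, a transcription factor and direct target of the pathway, and Hhip, a hedgehog-binding inhibitor, were called as well. Gli1 stood at 56.3 and 59.9 CPM against 15.4 and 16.6 CPM (edgeR adjusted p = 0.017 with all cells).

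Tnfsf11, the RANKL ligand through which osteoblasts drive osteoclast formation, stood at 18.8 and 52.2 CPM against 0.992 and 0.971 CPM, and its edgeR adjusted p of 0.012 missed the threshold. Without the 9 cells it was called, with a log2 fold change of 5.18 from a mean of 41.7 CPM against 0.981 CPM. Against the cartilage cells described next it was called with all cells, with a log2 fold change of 4.91 ± 0.65 (edgeR adjusted p = 0.0012).

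Genes of other tissues were lower. Hbb-bt, an adult beta globin, stood at 388 and 178 CPM against 10773 and 11689 CPM, and 5 of 6 red blood cell genes were lower. Of 6 muscle genes 3 were lower with all 91 cells, Myog, Actc1 and Mylpf. Pf4, a chemokine of megakaryocytes and macrophages, and C1qb, a complement gene of macrophages, had no UMI in the selected cells and were at least 28.2-fold and 25.7-fold lower against a floor of 3 UMIs over both libraries. Matn1, a cartilage matrix protein, had 1 UMI in each limb, against 50.9 and 65.5 CPM in the other cells. Sfrp2, a secreted Wnt modulator of mesenchyme, was the 1 lower gene among 15 of the Wnt list, with a log2 fold change of -1.98 ± 0.21 (edgeR adjusted p = 0.0060), and with no library block it stood at -1.99 ± 0.73 (edgeR adjusted p = 0.33).

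**Figure D2:**
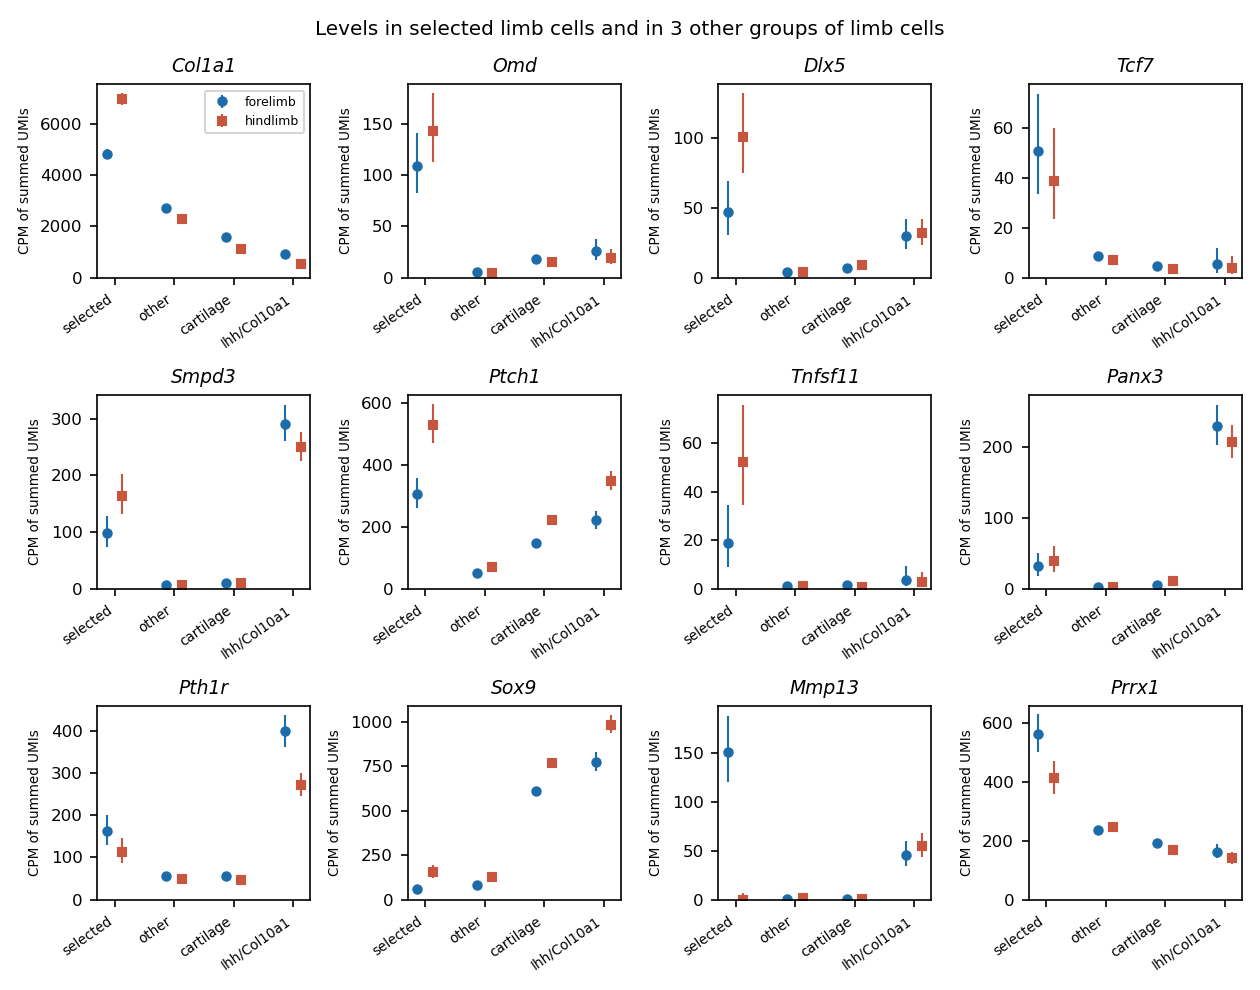
Levels of 12 genes (CPM, linear axes from 0, each gene on its own scale) in selected cells, all other limb cells, cartilage cells and Ihh or Col10a1 cells, with one point per library (circles forelimb, squares hindlimb) and exact 95% Poisson intervals as bars. Omd, Dlx5 and Col1a1 sit highest in the selected cells of both limbs, while Sox9 sits highest in both cartilage groups.

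Cartilage is the nearest skeletal neighbour of these cells and shares some of their genes. Cartilage cells were taken as those with Col2a1 at 1000 CPM or more and at least 2 of 5 further cartilage matrix genes, without Ihh or Col10a1, which gave 1435 forelimb and 1759 hindlimb cells. Against them 244 genes were higher (1.82%) and 228 lower (1.7%) in the selected cells among 13426 tested, or 3.52% in all. With no library block 213 were called, and of the genes named below Twist2, Gdf5, Bmp3, Bmp4, Fgfr3 and Ptch1 were not. The 82 remaining cells gave 342 higher (2.54%) and 298 lower (2.21%) among 13479, or 4.75% in all.

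Of the 14 bone transcription factors 8 were higher and none lower, with a median log2 fold change of 1.47 beside -0.03 over all genes, and the count was 8 without the 9 cells too. Tcf7, a nuclear partner of beta-catenin in Wnt signalling, stood at 50.6 and 38.7 CPM against 4.68 and 3.63 CPM, a log2 fold change of 3.34 ± 0.36 (edgeR adjusted p = 0.00037). In the hindlimb 1 cell held 80.0% of the 20 Tcf7 UMIs, and without the cell richest in Ibsp of each library Tcf7 was not called (2.45 ± 0.54, edgeR adjusted p = 0.016). Twist1 and Twist2, which mark mesenchyme and early osteoblast precursors, were higher by 1.52 ± 0.15 and 2.01 ± 0.23 on the log2 scale (edgeR adjusted p = 0.00018 and 0.00054). Lef1 was the exception among the Wnt partners, at 188 and 65.7 CPM against 92.1 and 130 CPM, and 1 cell held 51.0% of its 100 forelimb UMIs.

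Both type I collagen genes were higher in the selected cells than in cartilage. Of 14 bone matrix genes 5 were higher and 1, Mgp, an inhibitor of calcification, was lower, and without the 9 cells 8 were higher and Mgp was lower. Of 15 collagen-modifying genes 2 were higher and 1 was lower, with a median log2 fold change of -0.33 beside -0.03 over all genes. Col1a1 rose to 4838 and 6972 CPM from 1602 and 1131 CPM in cartilage, a log2 fold change of 2.03 ± 0.20 (edgeR adjusted p = 0.00018), and Col1a2, which encodes the second chain of the same collagen, had a log2 fold change of 1.62 ± 0.18 (edgeR adjusted p = 0.00040). Among the collagen-modifying genes Lox, the enzyme that starts collagen crosslinking, and Creb3l1, a transcription factor that raises secretion of type I collagen in osteoblasts, were higher, with log2 fold changes of 2.22 ± 0.25 and 1.99 ± 0.21 (edgeR adjusted p = 0.00039 and 0.00033). Plod2, a lysyl hydroxylase for collagen crosslinks, was lower at 93.8 and 73.5 CPM against 259 and 258 CPM, with a log2 fold change of -1.71 ± 0.17 (edgeR adjusted p = 0.00025).

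All 5 chondrocyte genes that the definition of the cartilage cells had not used were lower. Both groups were chosen by Col2a1, so lower levels of other cartilage genes were likely from the start. Sox9, the master factor of cartilage, stood at 58.1 and 157 CPM against 611 and 770 CPM (log2 fold change -2.83 ± 0.22, edgeR adjusted p = 4.8e-05), and Sox5, its partner, at 107 and 114 CPM against 1138 and 1314 CPM (-3.55 ± 0.14, edgeR adjusted p = 3.9e-07). Gdf5, a signal of joint-forming cells, had no UMI in the selected cells and was at least 15.4-fold lower against the floor of 3 UMIs.

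Signalling genes split within families. Bmp3 and Bmp4 were higher in the selected cells while the receptor Bmpr1b and Bmp6 were lower among 17 BMP genes, and 1 cell held 30 of the 60 forelimb UMIs of Bmp4. The growth-restraining receptor Fgfr3 of cartilage was lower among 11 FGF genes, with a log2 fold change of -1.99 ± 0.27 (edgeR adjusted p = 0.0015). Ptch1 was also higher against cartilage, at 308 and 532 CPM beside 147 and 223 CPM (log2 fold change 1.09 ± 0.14, edgeR adjusted p = 0.00094), and with no library block at 1.10 ± 0.28 (edgeR adjusted p = 0.084). Cpa3 had 253 UMIs in the forelimb selected cells and 176 in the hindlimb, and without the 9 cells 1 and 4 of them remained, so no test was read for it.

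Prehypertrophic and hypertrophic cartilage shares Runx2, Sp7, Ibsp and Alpl with bone, so cells with Ihh or Col10a1 and Col2a1 at 1000 CPM or more were the closest match in the limb, with 130 such cells in the forelimb and 158 in the hindlimb. Against them 315 genes were higher (3.48%) and 362 lower (4.0%) among 9061 tested, or 7.47% in all. With no library block 505 were called, and of the genes named below Gli1, Gli2 and Smpd3 were not. Without called doublets Gli1, Hhip, Smpd3 and Enpp1 were not called. With 82 cells 284 were higher (3.17%) and 309 lower (3.45%) among 8966, or 6.61% in all.

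Of 14 bone matrix genes 9 were higher and 1, Mgp, was lower. Col1a1 was among the higher genes, at 4838 and 6972 CPM against 911 and 526 CPM (log2 fold change 2.94 ± 0.28, edgeR adjusted p = 5.7e-05), as was Postn, a matricellular protein of periosteum, at 356 and 418 CPM against 118 and 78.1 CPM (1.88 ± 0.21, edgeR adjusted p = 0.00019). Twist1 was higher by 1.73 ± 0.19 on the log2 scale (edgeR adjusted p = 0.00013). Dlx5 was called without the 9 cells (1.40 ± 0.29, edgeR adjusted p = 0.0090) and not with them (1.13 ± 0.30, edgeR adjusted p = 0.029). Of 8 mesenchyme genes 5 were higher, including Prrx1 and Pdgfra.

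Of 6 tested mineralization genes 2, Smpd3 and Enpp1, were lower in the selected cells and none was higher, and none was called without the 9 cells. Panx3 stood at 31.9 and 38.7 CPM in the selected cells against 230 and 207 CPM (log2 fold change -2.75 ± 0.23, edgeR adjusted p = 1.9e-05). Pth1r, the receptor for parathyroid hormone and its related peptide, stood at 163 and 114 CPM against 399 and 272 CPM (-1.40 ± 0.17, edgeR adjusted p = 0.00024). Smpd3 and Enpp1, which produces the mineralization inhibitor pyrophosphate, were lower, with log2 fold changes of -1.18 ± 0.23 and -1.51 ± 0.31 (edgeR adjusted p = 0.0053 and 0.0070). Neither was called without the 9 cells, where Smpd3 stood at -0.84 ± 0.19 (edgeR adjusted p = 0.015) and Enpp1 at -1.27 ± 0.33 (edgeR adjusted p = 0.027). Smpd3 changed direction, to 0.50, when 3 of the 7 genes were required of a selected cell. All 10 chondrocyte genes were lower, Sox9 by a log2 fold change of -3.23 ± 0.25 (edgeR adjusted p = 1.0e-05). Here too the choice of both groups by Col2a1 made this likely from the start.

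Of 7 hedgehog response genes 4 were higher in the selected cells against these neighbours too, Gli1, Gli2 and Hhip among them, and the median log2 fold change was 1.15 beside -0.01 over all genes. Gli1, Gli2 and Hhip had log2 fold changes of 1.36, 1.15 and 1.85. Without the cell richest in Ibsp of each library they stood at 1.34, 1.11 and 1.38 and missed the threshold (edgeR adjusted p = 0.019, 0.016 and 0.044). With 82 cells Gli2 and Hhip were called among 6. Ptch1 itself, at 308 and 532 CPM against 221 and 349 CPM, was not called (0.42 ± 0.15, edgeR adjusted p = 0.096).

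Within the selected cells, 42 held a UMI of Ifitm5, Bglap or Dmp1, the later markers of the lineage, and 49 did not. Ifitm5 made most of this split: 39 cells held it, and 15 of these held 2 or more of its UMIs. Single Ifitm5 UMIs were also found in other cell types, so the cells called later here may not all be further on in the lineage. The later cells, 24 in the forelimb and 18 in the hindlimb, had higher levels of 3 genes among 5178 tested, or 0.0579%, and no gene was lower, while 410 genes had an unadjusted p under 0.05. Smpd3 stood at 171 and 359 CPM in the later cells against 8.33 and 13.7 CPM in the others, a log2 fold change of 4.59 ± 0.44 (edgeR adjusted p = 1.8e-05). In the forelimb its 50 UMIs in later cells lay in 8 cells. In the hindlimb all 81 lay in 1 cell, and the other 4 UMIs lay in cells without later markers, so the hindlimb difference is that of 1 cell. Without the cell richest in Ibsp of each library Smpd3 no longer passed the filter on low counts. Sgms2, a sphingomyelin synthase in which mutations cause bone fragility, stood at 273 and 416 CPM against 41.6 and 34.3 CPM (3.22 ± 0.36, edgeR adjusted p = 0.00013). Fat3, an atypical cadherin, stood at 328 and 301 CPM against 74.9 and 78.9 CPM (2.07 ± 0.31, edgeR adjusted p = 0.0048). Smpd3 and Sgms2 act on the same lipid, the first cleaving sphingomyelin and the other making it.

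The type I collagen genes were higher in the later cells in both libraries without passing the threshold. Col1a1 stood at 5750 and 9971 CPM against 3726 and 4649 CPM (log2 fold change 0.92 ± 0.18, edgeR adjusted p = 0.033), and without the 9 cells Col1a2 was called (1.10 ± 0.11, edgeR adjusted p = 0.0088). Omd and Dlx5 were not called between the later cells and the others: Omd stood at 95.5 and 79.7 CPM against 125 and 192 CPM, and Dlx5 at 37.5 and 106 CPM against 58.3 and 96.1 CPM. Without the 9 cells 3 of 3988 genes were called, or 0.0752%, and none was lower: Smpd3, Sgms2 and Col1a2, while Fat3 was not (2.31 ± 0.27, edgeR adjusted p = 0.022).

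A few cells carried most of the mature signal. In the hindlimb a single cell of 36856 UMIs held 642 of the 654 Ibsp UMIs, 105 of the 122 Ifitm5 UMIs and 81 of the 85 Smpd3 UMIs, together with 1157 Col1a1 UMIs and 79 of the 104 Sgms2 UMIs. In the forelimb the signal was shared between cells: 1 held 234 Ibsp and 33 Ifitm5 UMIs, another 204 Ibsp and 43 Spp1 UMIs, and another 67 Ibsp and 11 Ifitm5 UMIs. Ibsp and Ifitm5 were found together in 6 forelimb and 4 hindlimb cells. When the cell with the most Ibsp UMIs in each library was left out, the later cells differed from the others in 26 genes, of which 1 was among the 3 above. Without the deepest cell of each library 1 of the 3 was called, and without the called doublets no gene was, although 380 had an unadjusted p under 0.05; DESeq2 on all cells called 2. With no library block edgeR called none of 5178, with 319 genes at an unadjusted p under 0.05. Sgms2 was called in neither of these settings (edgeR adjusted p = 0.041 without called doublets and 0.021 with no library block) and stood at 1.70 ± 0.42 without the cell richest in Ibsp of each library (edgeR adjusted p = 0.013).

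Another small group stood out by matrix-degrading enzymes. Mmp13, a collagenase of osteoblasts and hypertrophic cartilage, was found in 3 forelimb cells with 36, 24 and 21 UMIs and in no hindlimb cell. The same 3 cells held 233 of the 245 forelimb UMIs of Mmp9, a gelatinase best known from osteoclasts, at 128, 95 and 10 UMIs, and they held 44, 14 and 75 Spp1 UMIs. The forelimb level of Mmp9 was 459 CPM (exact 95% Poisson interval 404 to 521) and the hindlimb level 17.4 CPM (7.96 to 33.0). These levels therefore describe 3 cells and not the limb.

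**Figure D3:**
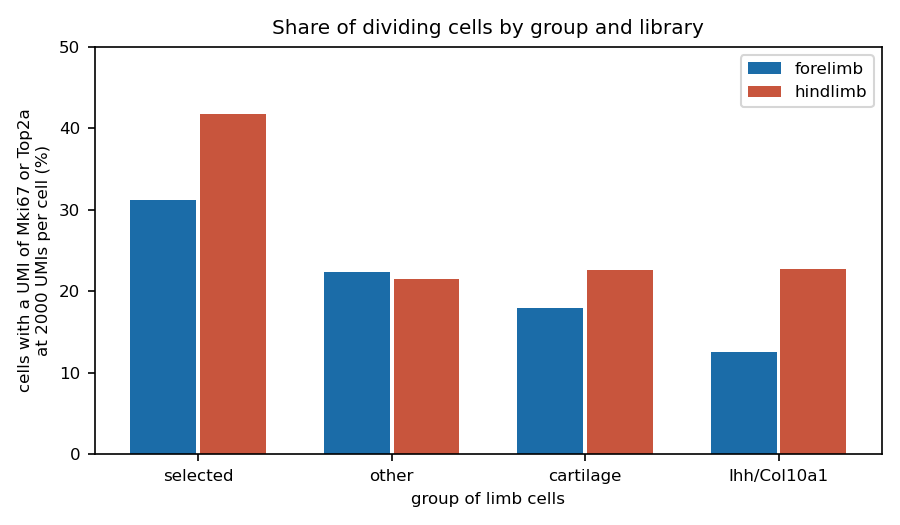
Expected share of cells (percent) with a UMI of Mki67 or Top2a after thinning to 2000 UMIs, with shallower cells left out. Bars are drawn per library for the selected cells and for the other groups of limb cells. The bars of the selected cells, at 31.2% and 41.8%, are the tallest in each library at this depth, which in the forelimb was not so after thinning to 4000 UMIs without the 9 cells, and error bars are not drawn.

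Transcripts of dividing cells were found more often in the hindlimb selected cells than in other hindlimb cells, while in the forelimb the difference depended on the depth compared. A UMI of Mki67 or Top2a, which are made in dividing cells, was found in 47.9% of forelimb and 53.5% of hindlimb selected cells. Each cell of at least 2000 UMIs was then thinned to 2000 UMIs to remove the difference in depth, and shallower cells were left out. The share was then 31.2% (interval 19.1% to 47.1%, 47 cells) and 41.8% (27.0% to 59.1%, 40 cells). In the other limb cells it was 22.4% and 21.4%, inside the forelimb interval and below the hindlimb interval. Each interval covers counting error over the cells of a single library, which are not replicates. A difference between the groups was therefore not tested. Without the 9 cells the thinned shares were 26.3% and 42.2%. At 4000 UMIs fewer cells were deep enough, 40 selected and 15419 other cells in the forelimb, so the depths describe different sets of cells. Thinned to 4000 UMIs, the share was 35.8% in forelimb selected cells against 34.8% in the other cells, and 28.2% without the 9. In the hindlimb it was 53.9% against 32.1%, and 54.2% without the 9.

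Between the limbs the known position genes behaved as a check of the labels. Tbx5, the forelimb T-box factor, was found in 11 forelimb and 1 hindlimb selected cells, Tbx4, its hindlimb relative, in 3 and 16, and Pitx1, which sets hindlimb identity, in 0 and 17. Pitx1 had 33 UMIs in the hindlimb cells and was at least 11.3-fold lower in the forelimb against a floor of 3 UMIs. Across 4124 genes with at least 50 UMIs in all, the Poisson intervals of the limbs lay apart for 422, or 10.2%, with 205 higher in the forelimb and 217 in the hindlimb.

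Several of the widest differences between the limbs lay in single cells. Hbb-y, an embryonic globin, stood at 18.8 CPM in the forelimb and 823 CPM in the hindlimb, with 99.3% of the hindlimb UMIs in 1 cell. Lrp1b, a lipoprotein receptor relative, stood at 56.3 and 497 CPM with 79.0% of its hindlimb UMIs in 1 cell, and Sgip1 at 128 and 1.93 CPM with 82.4% of its forelimb UMIs in 1 cell. Glis1, Rbfox1, Csmd3 and Kcnip4 were also among the 10 widest, and Glis1 and Rbfox1 had 69.0% and 79.2% of their UMIs in 1 forelimb cell.

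The same selection in the penis libraries, after the limits for those libraries, took 39, 36 and 28 cells, which were 0.573%, 0.507% and 0.490% of the kept cells. Their median depth was 12590, 14485.5 and 11834.5 UMIs, against 7452 and 9285 in the forelimb and hindlimb. Their median Runx2 count was 12, 13 and 9.5 UMIs, against 5.5 and 4. Exactly 2 of the selection genes were found in 22, 25 and 16 of them, and in 35 of 48 forelimb and 33 of 43 hindlimb cells. Compared with these 103 penis cells, limb cells had lower levels of 8 of 14 bone matrix genes, and Hmga2, Foxp2 and Ebf3 were among the genes they held at higher levels. Of 8131 genes tested 124 were higher in the limb (1.53%) and 231 lower (2.84%), or 4.37% in all. Without the 9 limb cells, and 2 penis cells with such markers, 139 were higher (1.81%) and 216 lower (2.82%) among 7664, or 4.63% in all.

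**Figure D4:**
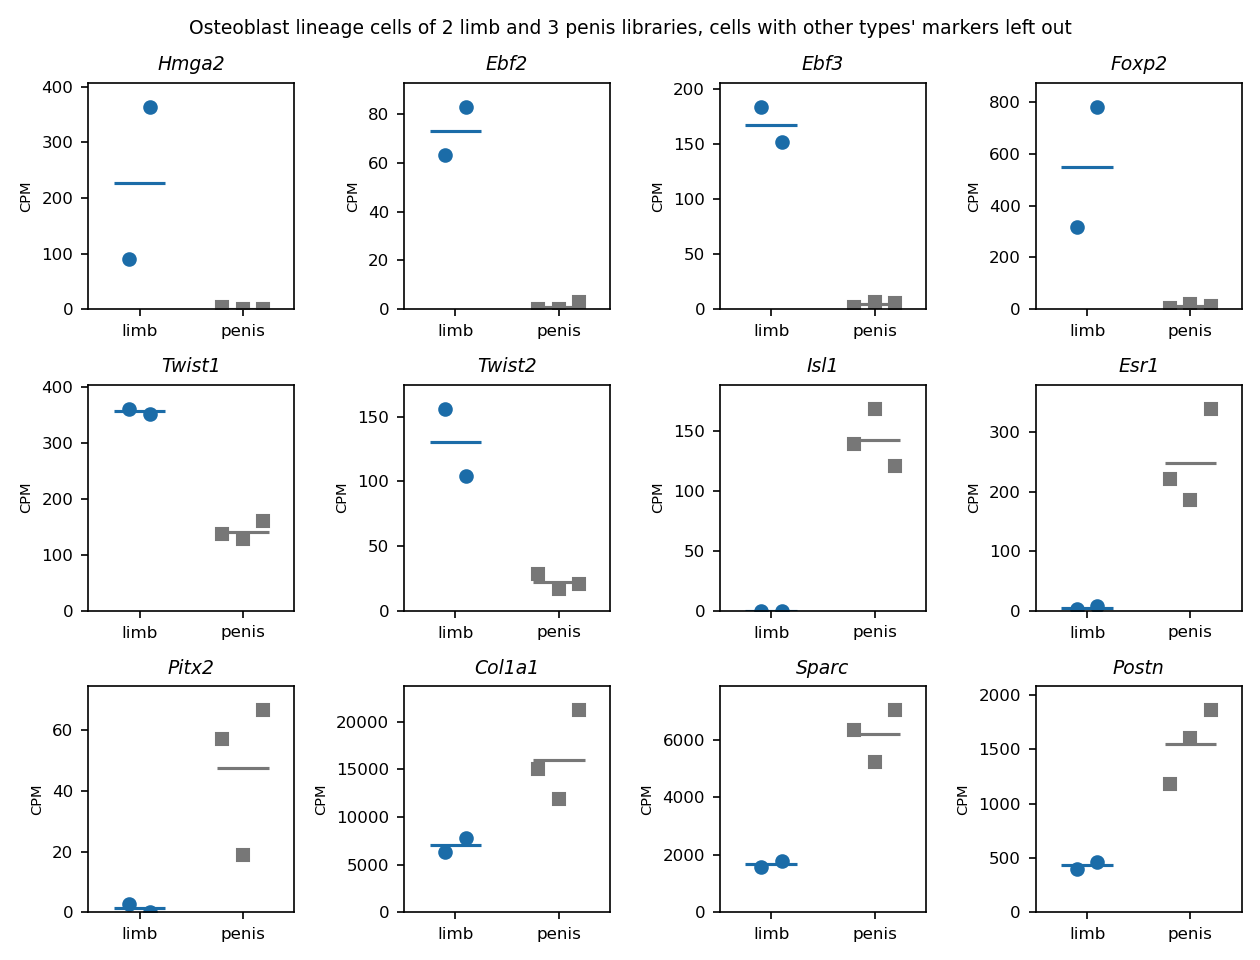
Levels of 12 genes (CPM, linear axes from 0, each gene on its own scale) in the selected cells of 2 limb libraries (circles) and 3 penis libraries (squares), with lines at the group means and with cells holding markers of other cell types left out. Col1a1 and Sparc lie lower in both limb libraries than in all 3 penis libraries, and Hmga2 and Foxp2 lie higher.

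Of 14 bone matrix genes 8 were lower in the limb and none higher, with a median log2 fold change of -1.39 beside 0.00 over all genes. These are levels over all selected cells. Whether the limb and penis selections hold equal shares of osteoblast lineage cells was not tested. Col1a1 stood at 4838 and 6972 CPM in the limbs against 14992, 11257 and 21201 CPM in the 3 penis libraries (log2 fold change -1.53 ± 0.24, edgeR adjusted p = 0.0025). Sparc, osteonectin, which binds collagen and mineral, stood at 1268 and 1612 CPM against 6354, 4969 and 7036 CPM (-2.19 ± 0.19, edgeR adjusted p = 7.7e-05). Dcn stood at 504 and 131 CPM against 2188, 1841 and 2480 CPM (-2.87 ± 0.44, edgeR adjusted p = 0.0025). No limb library overlapped a penis library for these 3 genes. Omd, Dlx5 and Smpd3, which set the limb cells apart from other limb cells, were not called between the tissues, at log2 fold changes of -0.12 ± 0.27, -0.24 ± 0.33 and 0.14 ± 0.49 (edgeR adjusted p = 0.82, 0.69 and 0.89).

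Hmga2, Foxp2 and Ebf3 were higher in the limb. Hmga2, a chromatin protein of embryonic cells, stood at 86.3 and 344 CPM in the limbs and at 3.80, 0 and 0 CPM in the penis libraries, where 2 UMIs were found in all. Foxp2, a forkhead factor, stood at 274 and 700 CPM against 5.70, 17.7 and 12.1 CPM (log2 fold change 5.23 ± 0.47, edgeR adjusted p = 0.00011), and Ebf3, a factor of mesenchymal precursors, at 167 and 147 CPM against 1.90, 11.8 and 6.05 CPM (4.41 ± 0.40, edgeR adjusted p = 0.00012). Twist1 and Twist2 were the 2 bone transcription factors of 13 that were called, higher in the limb by 1.15 ± 0.19 and 2.53 ± 0.37 on the log2 scale (edgeR adjusted p = 0.0035 and 0.0019).

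Signalling and hormone genes differed too. Bmp2, Bmpr1b and Smad7 of 13 BMP genes were higher in the limb, and Grem1, a BMP antagonist, was lower. Spry4, an FGF feedback inhibitor, stood at 35.6 and 40.6 CPM against 7.60, 7.88 and 9.07 CPM (2.09 ± 0.42, edgeR adjusted p = 0.0097), and it just missed the threshold without called doublets (2.40 ± 0.47, edgeR adjusted p = 0.0104) and without the cell richest in Ibsp of each library (2.08 ± 0.43, edgeR adjusted p = 0.0101). Igf1r, the receptor for insulin-like growth factor, was higher by 1.09 ± 0.19 (edgeR adjusted p = 0.0051). Esr1, the oestrogen receptor, stood at 3.75 and 7.73 CPM in the limbs, from 2 and 4 UMIs, against 220, 175 and 339 CPM (-5.44 ± 0.45, edgeR adjusted p = 7.0e-05). Isl1, a homeobox factor of the genital tubercle, had no UMI in the limb cells and 194 in the penis cells, which is at least 49.8-fold, and Srd5a2, which converts testosterone to dihydrotestosterone, was at least 10.0-fold lower in the limb. Without called doublets Srd5a2 just missed the threshold (edgeR adjusted p = 0.0108). Cpa3 had no UMI in the penis cells.

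Whether a gene set the selected cells apart from their own tissue equally in limb and penis was tested as an interaction, on the summed counts of selected and other cells in all 5 libraries. With 3 residual degrees of freedom, edgeR took each gene's spread almost wholly from values shared across genes (a median prior of 192 degrees of freedom). Without the 9 limb and 2 penis cells it did so wholly, so no p-values of this test are given. Of 19592 genes 362 were called, or 1.85%, with 165 having the higher difference in the limb (0.842%) and 197 the lower (1.01%). Leaving the same cells out, 410 of 19557 were called, or 2.1%, with 202 higher (1.03%) and 208 lower (1.06%). Sox6, a partner of Sox9 in cartilage, was near the level of other cells in the limb, with a log2 difference of 0.21, and higher than other cells in the penis by 2.98. Plod2 behaved alike, with -0.19 in the limb and 2.19 in the penis. Erc2, known as a presynaptic scaffold protein, showed the opposite pattern with 2.45 in the limb and -0.92 in the penis. Col1a1 and Sparc, lower in limb than in penis cells above, were not called in the interaction, at log2 differences of -0.37 and -0.56. The 2 tissues differ in the other cells as well as in the selected ones, so these differences describe a contrast within each tissue.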

How the data were processed

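Single-cell libraries were processed by the authors with Cell Ranger 7.0.0 on the mm10 build, per the submitters' processing notes, and deposited as filtered matrices of UMI counts per gene and barcode. Limb barcodes were kept at 100 to 9000 detected genes and at most 10% mitochondrial UMIs, and penis barcodes at 500 to 6000 genes and at most 5%. These numbers follow the methods of the study, which state the first limits as reads per cell, put the upper one at 9500 for the hindlimb and also require 0.8 log10 genes per UMI. The last 2 were applied as an alternative, which left 22057 forelimb and 20514 hindlimb barcodes and the same numbers of selected cells, 48 and 43. The cells were chosen by detected genes, as the report states, and the members, gene lists and tests were chosen with earlier results of these data known. Counts were summed per library and cell group and tested with edgeR 4.0.16 (quasi-likelihood, TMM, filterByExpr, Benjamini-Hochberg) in R 4.3.3, with the library as a block within the limb and with none between limb and penis. Calls needed an adjusted p under 0.01 and an absolute log2 fold change above 1. Within the limb the p-values measure how the difference between groups varied between the 2 limb libraries, with 1 residual degree of freedom. Most of the spread used was borrowed across genes. Between limb and penis they measure the spread of libraries within each tissue, with 3 residual degrees of freedom. Both limbs were dissected from 6 male embryos and the penises from 3 male mice of 2 litters, and no source used here says which animals each library holds, so the limb libraries may share embryos and were counted as 2 samples. No test was read for genes that chose a group. Genes were named as members of the lists or as the 10 highest and 10 lowest called genes with a mean of at least 20 CPM and the same direction in each library, leaving out unnamed models. The alternatives were DESeq2 1.42.0, other size factors, filters, selections of cells and fits without the block. Leaving out the cells with markers of other types, the deepest or the Ibsp-richest cell, and the mast cell list were chosen after seeing the data. Doublets were called with the Scrublet method in scanpy 1.11.5 and kept in the main selection. In every library it marked fewer cells than the share it was set to expect. It marked 3.18% of kept forelimb cells against an expected share of 0.226, and 2.28% of kept hindlimb cells against 0.207. Results without called doublets may therefore still hold mixtures. In the third penis library it marked under 0.5% of cells, so it cannot be relied on there. On simulated counts the test for selected against other cells recovered 32% of genes changed by 1 and 90% of genes changed by 2 on the log2 scale. The simulation gave all genes the same spread, had no library effect and changed only genes with enough counts in every sum. Recovery there needed the adjusted p alone and no fold change, so the rates may be too high for the calls made here. Results for a few genes are not reported here.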

Additional observations from a re-analysis of the deposited data

Results flagged for a closer look

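Of 50 named or listed genes that differed between limb and penis cells, 25 were also called in the interaction test described above. Of these 25, 21 were also called without cells holding other types' markers. Over all genes the interaction called 362 of 19592, or 1.85%. The 50 genes were chosen by a difference in the same selected cells, so part of the overlap was built in. Col1a1 and Sparc were not among the 25. Isl1, Esr1, Srd5a2, Ebf3 and Twist1 were not either, so their gap was not shown to exceed that between other limb and penis cells. For the 21 genes that differed between limb and penis cells, the difference between selected cells and the other cells of their own tissue also differed between limb and penis (edgeR interaction, adjusted p under 0.01, with and without the 9 limb and 2 penis cells holding markers of other cell types). In this test edgeR took each gene's spread almost wholly from values shared across genes, with 3 residual degrees of freedom. The values are log2 differences, limb minus penis. The contrast was lower in the limb for Dner at -4.62, Gpx3 at -3.60, Sox6 at -2.77, Lrrtm4 at -2.52, Enpp1 at -2.47, Plod2 at -2.37, Sox5 at -1.87, Cxcl12 at -1.78, Dcn at -1.48, Fmod at -1.30 and Col6a1 at -1.08. It was higher in the limb for Lrrc4c at 5.17, Stmn2 at 3.61, Erc2 at 3.37, Hmga2 at 3.16, Cadm2 at 3.06, Bmp2 at 2.01, Twist2 at 1.66, Foxp2 at 1.44, Bmpr1b at 1.09 and Smad7 at 1.02. Some of these rest on very few UMIs in 1 tissue and are not exact folds. Dner had a mean of 0.94 CPM in limb selected cells and Hmga2 1.27 CPM in penis selected cells. Lrrc4c had 0.63 CPM in penis selected cells without those holding other types' markers. Hmga2 and Twist2 stood at 0.74 and 0.11 against other limb cells in the limb, and at -2.43 and -1.54 against other penis cells in the penis. Gpx3, a secreted glutathione peroxidase, was 3.40 higher than in other cells in the penis and -0.21 from them in the limb. Tissue, age and preparation cannot be told apart.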

How the results depend on the processing

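The share of selected cells fell with stricter rules, to 0.0503% (forelimb) and 0.0418% (hindlimb) with 3 of the 7 genes, 0.104% and 0.0961% with Sp7 required, and 0.0553% and 0.0424% after thinning cells to 2000 UMIs. Counts of called genes moved as follows, and the cause was not tested. Against other limb cells they were 138 with DESeq2's size factors in edgeR, 190 with no filter, 215 with DESeq2 and 538 without called doublets. They were 291 with 3 genes, 492 with Sp7, 29 among cells of 4000 to 16000 UMIs and 621 without the 9 cells. They were 197 without the deepest cell, 283 without the Ibsp-richest, 9 with no library block, and 171 against other cells with Prrx1 or Pdgfra. Where 538 and 621 were called, edgeR took each gene's spread wholly from values shared across genes. Against cartilage they were 792 with no filter, 198 with Sp7, 306 in the depth range and 213 with no library block. Against Ihh or Col10a1 cells they were 1043 with no filter, 301 with DESeq2 and 306 with 3 genes, and 505 with no library block. Later against other selected cells gave 55 with no filter, 0 without called doublets, 1 in the depth range, 1 without the deepest cell, 26 without the Ibsp-richest and 0 with no library block; at an unadjusted p under 0.05 edgeR gave 380 and 319 genes in the settings with 0. Limb against penis gave 207 with no filter, 68 with 3 genes, 99 with Sp7 and 169 in the depth range, and 147 to 272 when 1 library was left out: 169 without penis 1, 272 without penis 2, 166 without penis 3, 147 without the forelimb and 150 without the hindlimb, where the lone limb library is assumed to vary like the penis libraries. No paired analysis was possible because the limb and penis libraries share no animals. These single values changed sign: Mmp13 against other cells with Sp7 required (-9.25), Cpa3 against cartilage with 3 genes (-2.77) and without the 9 cells (-3.46, by construction, since those cells held nearly all of its UMIs), Smpd3 against Ihh or Col10a1 cells with 3 genes (0.50), and the forelimb over hindlimb ratio of Lrp1b with Sp7 required (0.61). Within the limb, leaving out 1 library leaves no residual degree of freedom, so it gave fold changes without a test. With 48 and 43 cells of 533291 and 517325 UMIs, 3 UMIs correspond to 5.63 and 5.80 CPM, so a level below these rests on fewer than 3 UMIs.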
